A study of Homo sapiens with 6 samples.

Results

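Calcium-binding S100 proteins and annexins were examined at the transcript level in FUJIOKA, an established cell line of human acute myeloid leukaemia. The genes were those with the symbols S100A4, S100A6, S100A8, S100A9, S100A10, S100A11, S100A12, ANXA1, ANXA2 and ANXA5, and each symbol matched 1 of the 63236 genes in the deposited table, which gave 10 genes. The series compared 3 libraries of cells carrying a non-targeting shRNA (shNEG) with 3 libraries of cells carrying an shRNA against SPINK2 (shSPINK2), a Kazal-type serine protease inhibitor. In both groups the shRNA was delivered by lentivirus and switched on by doxycycline, so the shNEG cells shared the vector and the inducer. The methods name 1 SPINK2 shRNA and the labels name 2, without saying which of them an shSPINK2 library carries, and nothing states that the libraries of a group came from separate cultures.

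The value used here is the mean normalized count, the average over all 6 libraries of each gene's reads after correction for library size. It weighs both groups equally and has no value per group, so no difference between shSPINK2 and shNEG was computed and the levels below describe the FUJIOKA cells of both groups together. The mean normalized counts summed to 38425214 reads per library, and 32220 genes had a mean above 0. Intervals given with levels are 95% Poisson intervals of the read sum over 6 libraries, taken as 6 times the mean and rounded, which approximates the reads counted because the size factors, the corrections for library size, ranged from 0.985 to 1.03. They cover counting error only, not the spread between cultures. SPINK2 itself had a mean normalized count of 32.3 (95% interval 27.9 to 37.2). Its reads, recovered from that mean as described with the processing, ranged from 6 to 63 per library without a group label.

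S100 proteins are small proteins that bind calcium through paired EF-hands and mostly act as dimers, inside the cell on enzymes and the cytoskeleton and, after release, on receptors of immune cells. Annexins bind phospholipid membranes when calcium rises. In the myeloid lineage S100A8, S100A9 and S100A12 are abundant cytosolic proteins of neutrophils and monocytes and serve as alarmins, whereas S100A10 is the partner of ANXA2 at the membrane. The cells were checked against marker genes. Of 10 myeloid and progenitor markers 9 had a mean of at least 10, from CD34 at 19.6 to LYZ at 44097 normalized counts, and KIT was at 0.666. The monocyte marker CD14 was at 2.83, while CSF1R reached 3622. The epithelial markers EPCAM, KRT18 and KRT19 were all listed at 0, as were HBB and HBA1, the haemoglobin genes of erythroid cells. Of the T cell markers CD3D, CD3E and CD8A were at 3.64 or lower and CD4, which monocytes also carry, was at 3785. The B cell markers CD79A and MS4A1 were at 183 and 0.333, the megakaryocyte markers ITGA2B and PF4 at 24.4 and 0, and the fibroblast markers COL1A1 and COL1A2 at 149 and 0.

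Promoter sequence is shown for the most abundant gene, its chromosomal neighbours and the highest and lowest of the 3 annexins, because these genes lie at opposite ends of the expression range. The sequences come from RefSeq (GRCh38.p14), cover the 120 bases before the transcription start and read 5′ to 3′ on the gene's strand, with the motif TATAAA in capitals.
S100A9, chr1:153357734-153357853, plus strand: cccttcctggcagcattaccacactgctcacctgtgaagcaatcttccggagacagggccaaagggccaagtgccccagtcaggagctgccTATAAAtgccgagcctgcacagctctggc
S100A8, chr1:153391074-153391193, minus strand: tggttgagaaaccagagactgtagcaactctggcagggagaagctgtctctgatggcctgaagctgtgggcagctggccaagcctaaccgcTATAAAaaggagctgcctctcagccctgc
S100A12, chr1:153375622-153375741, minus strand: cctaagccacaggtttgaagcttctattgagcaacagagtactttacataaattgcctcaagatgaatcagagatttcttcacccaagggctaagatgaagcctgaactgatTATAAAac
ANXA1, chr9:73151745-73151864, plus strand: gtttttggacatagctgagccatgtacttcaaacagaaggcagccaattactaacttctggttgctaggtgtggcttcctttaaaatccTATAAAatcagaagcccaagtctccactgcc

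For ANXA5 the capitals mark each CG dinucleotide instead, since its window held no TATAAA.
ANXA5, chr4:121696981-121697100, minus strand: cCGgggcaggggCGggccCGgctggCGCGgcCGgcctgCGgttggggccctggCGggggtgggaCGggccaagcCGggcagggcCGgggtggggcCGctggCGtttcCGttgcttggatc

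All 10 genes had a promoter in the RefSeq table, which spans 250 bases before and 50 after the start. TATAAA on the gene's strand occurred in 6 of them, namely S100A4, S100A8, S100A9, S100A12, ANXA1 and ANXA2, against 7.3% of the 35116 promoters in the table. A search of both strands found the motif in the same 6 and in 11.5% of all promoters. Its first base lay 29 bases before the start in S100A8 and S100A9, 31 bases before it in S100A4, ANXA1 and ANXA2, and 8 bases before it in S100A12. The number of CG dinucleotides ranged widely. S100A12 had 1, S100A8 had 2, S100A9 had 5 and ANXA1 had 0, S100A4 and S100A11 had 8 and 22, and S100A6, S100A10, ANXA2 and ANXA5 had 31, 32, 32 and 36, beside a median of 14 over the table. Motif matches are descriptions of the sequence. The lowest genes, S100A12 and ANXA5, had 1 and 36 CG dinucleotides.

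The 10 genes together held 0.151% of all normalized reads, or 1512 of every 1000000. Of these genes 8 had a mean of at least 10 normalized counts, and S100A12 and ANXA5 did not. Over the whole series 16131 of 63236 genes had a mean of at least 10, the share beside which each such count stands. The means of the 10 genes spanned from 1.33 for S100A12 to 21578 for S100A9. The 10 genes are compared below per kilobase of merged exons, the union of all annotated exons in GENCODE release 44, and per kilobase of the canonical transcript where that changes the order. Shares of reads and the means of other genes are not corrected for length unless a length is named.

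**Figure D1:**
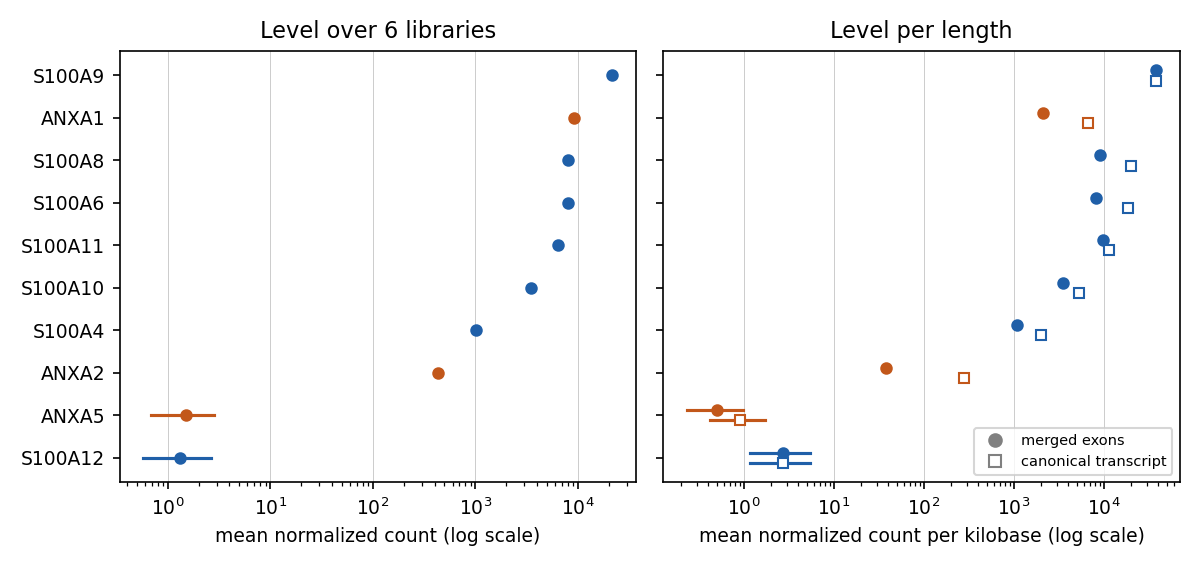
Mean normalized count over 6 libraries (left) and the same value per kilobase (right) for the 10 genes, on log axes, with S100 genes in blue and annexins in orange. Lines are 95% Poisson intervals of the read sum, hidden by the points except for S100A12 and ANXA5, which stand at 1.33 and 1.49 normalized counts while the other 8 genes lie at 436 or above.

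S100A9 and S100A8 form calprotectin, a calcium- and zinc-binding heterodimer. S100A9 (ENSG00000163220.10) lies on chromosome 1 from 153357854 to 153361023 on the plus strand (GRCh38). Its mean normalized count was 21578 (95% interval 21461 to 21696), the highest of the 10 genes. S100A8 (ENSG00000143546.9), on the minus strand from 153390032 to 153391073, had a mean normalized count of 8027 (95% interval 7956 to 8099). Per kilobase of merged exons the level was 37658 for S100A9 and 9009 for S100A8, a ratio of S100A8 to S100A9 of 0.239 (95% counting interval 0.237 to 0.242). The ratio depended on the length used, because S100A8 has 3 annotated transcripts that extend its merged exons to 891 bases, while its canonical transcript has 408. With canonical transcripts it was 0.522. S100A8 was thus below S100A9 at either length.

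S100A12, also known as calgranulin C and a ligand of the receptor for advanced glycation end products, lies between these genes from 153373711 to 153375621, at 12.7 kb from S100A9 and 14.4 kb from S100A8. Its mean normalized count was 1.33 (95% interval 0.576 to 2.63). The 6 libraries, in order of rising size factor and without a group label, held 3, 0, 0, 3, 0 and 2 reads, which is 8 reads in all. No library of either group held more than 3 reads, and 3 of the 6 held none. Per kilobase, S100A12 stood at 2.74 normalized counts with either length, against 37658 for S100A9.

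**Figure D2:**
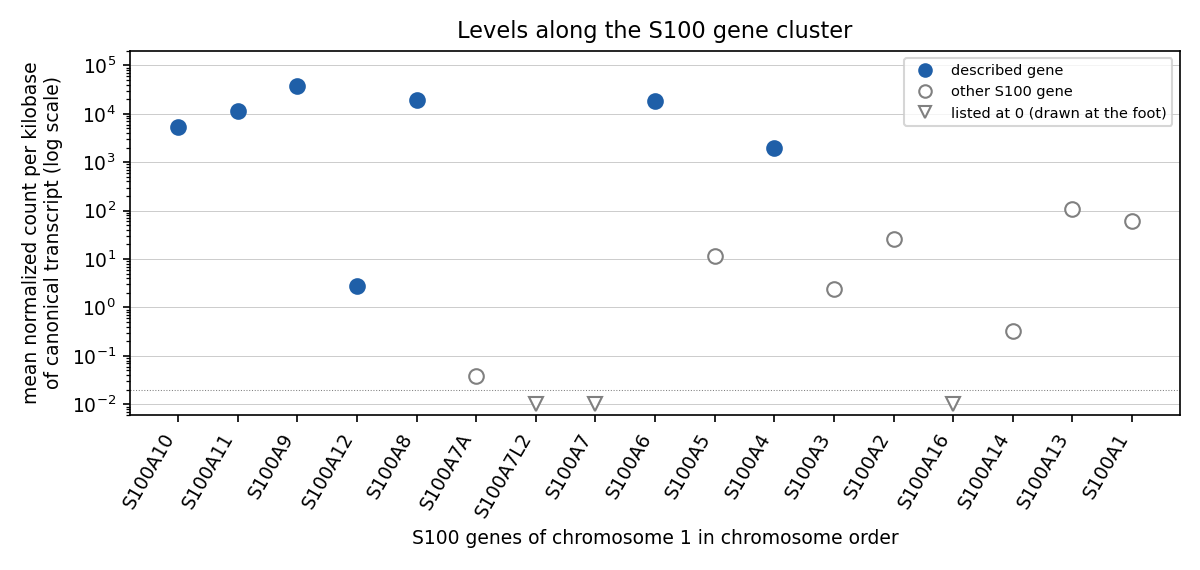
Mean normalized count per kilobase of canonical transcript (log axis) for the 17 S100 genes of chromosome 1 in chromosome order, with the described genes filled and genes listed at 0 as triangles at the foot. S100A12 lies at 2.74 between S100A9 at 37658 and S100A8 at 19675.

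S100A6, S100A5 and S100A4 lie side by side further along the same chromosome. S100A6 or calcyclin (ENSG00000197956.9), on the minus strand from 153534599 to 153536244, had a mean normalized count of 7950 (95% interval 7878 to 8021). S100A4 (ENSG00000196154.11), on the minus strand from 153543613 to 153550136, binds non-muscle myosin heavy chain and had a mean normalized count of 1017 (95% interval 991 to 1043). Per kilobase of merged exons S100A4 reached 0.131 times the level of S100A6 (95% counting interval 0.128 to 0.135). S100A5, which lies between them, had a mean normalized count of 8.93, and its reads in the unlabelled libraries were 6, 8, 11, 7, 9 and 13. S100A3, within the annotated span of S100A4 on the same strand but without shared exons, had a mean of 1.82. A long noncoding gene on the strand opposite to S100A6 overlaps its exons and had a mean of 1.5, and the strand setting of the authors' counting is not given in the sources used here.

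S100A10 and S100A11 lie apart from the others on chromosome 1, 38.6 kb from each other, and S100A11 ends 1309.9 kb before S100A9. S100A10 (ENSG00000197747.8), on the minus strand from 151982915 to 151993859, encodes p11, which binds ANXA2 and has lost calcium binding. Its mean normalized count was 3499 (95% interval 3452 to 3547). S100A11 or calgizzarin (ENSG00000163191.5), from 152032506 to 152047907 on the minus strand, is known to bind ANXA1. It had a mean normalized count of 6359 (95% interval 6295 to 6423). Its pseudogenes S100A11P1 and S100A11P2, which could take reads from it, had means of 1.66 and 0.998. Reads that match S100A11 and a pseudogene equally may be counted for neither, so these means cannot show how many reads S100A11 lost.

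Among annexins, ANXA1 (ENSG00000135046.13), a mediator of resolution of inflammation that signals through formyl peptide receptors, lies on chromosome 9 from 73151865 to 73170393. Its mean normalized count was 9247 (95% interval 9171 to 9325). ANXA2 (ENSG00000182718.16), on chromosome 15 from 60347134 to 60402883, had a mean normalized count of 436 (95% interval 419 to 453). Its pseudogenes ANXA2P1 and ANXA2P3 were listed at 0 and ANXA2P2 had a mean of 2.98, with 3, 4, 0, 3, 5 and 3 reads in the unlabelled libraries. Adding these reads to ANXA2 changed the ratio of S100A10 to ANXA2 from 91.8 to 91.2 per kilobase of merged exons. Reads that match ANXA2 and a pseudogene equally may be counted for neither. The paper's methods do not state how such reads were handled, so these values cannot show how many reads ANXA2 lost.

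The partners S100A10 and ANXA2, which assemble into a heterotetramer in equal amounts, thus had unequal transcript levels at each length used. The size of the ratio depended on the length, because GENCODE lists 46 transcripts of ANXA2 with 11574 bases of merged exons, whereas the canonical transcript has 1554. S100A10 was 18.6 times ANXA2 per kilobase of canonical transcript (95% counting interval 17.9 to 19.4). Without length correction it was 8.03 times ANXA2. These are levels of RNA, and protein was not measured.

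ANXA5, the annexin whose labelled protein is used to stain phosphatidylserine on dying cells, was nearly absent. The gene (ENSG00000164111.14) lies on chromosome 4 from 121667946 to 121696995 on the minus strand and has 13 exons in its canonical transcript. Its mean normalized count was 1.49 (95% interval 0.686 to 2.85). The unlabelled libraries held 1, 3, 1, 0, 3 and 1 reads in the same order as above, 9 reads in all, so no library of either group exceeded 3. The nearest protein-coding genes differed among themselves. SMIM43, 61.9 kb away, was listed at 0 and QRFPR, 286.9 kb away on the other side, was at 0.333, whereas EXOSC9, 104.3 kb away, had a mean normalized count of 1452.

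**Figure D3:**
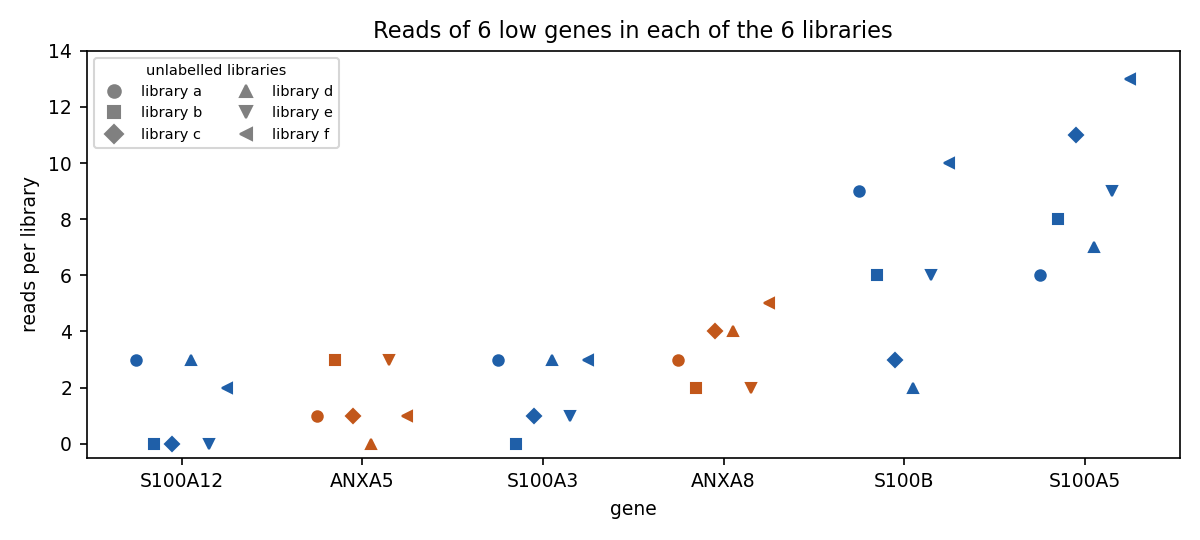
Reads of 6 low genes in each of the 6 libraries, which carry no group label, with 1 symbol per library (a to f in order of rising size factor). S100A12 and ANXA5 stay at 3 reads or fewer in every library, and S100A5 ranges from 6 to 13.

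Per kilobase of merged exons, the order of the genes was S100A9, S100A11, S100A8, S100A6, S100A10, ANXA1, S100A4, ANXA2, S100A12 and ANXA5. Neighbours in this order were separated by more than their counting intervals, although S100A11 exceeded S100A8 by only 1.09-fold and S100A8 exceeded S100A6 by 1.10-fold. Per kilobase of canonical transcript the order was S100A9, S100A8, S100A6, S100A11, ANXA1, S100A10, S100A4, ANXA2, S100A12 and ANXA5. There, the intervals of S100A12 (1.19 to 5.42) and ANXA5 (0.419 to 1.74) overlapped. The places of S100A9, S100A4, ANXA2, S100A12 and ANXA5 were equal with both lengths. The spread between cultures could not be computed for the 8 abundant genes, so the small steps among S100A11, S100A8 and S100A6 are not separated from it.

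Among the 31833 genes with a mean above 0 and a GENCODE length, the median level was 8.27 normalized counts per kilobase of merged exons. S100A9 stood at the 99.93 percentile, S100A11, S100A8 and S100A6 at 99.63, 99.58 and 99.52, S100A10 at 98.65, ANXA1 at 97.50 and S100A4 at 94.74. ANXA2 stood at 63.56, S100A12 at 37.44 and ANXA5 at 17.56. Among the 16127 protein-coding genes with a mean above 0, ANXA2 stood lower, at 37.8, and S100A12 and ANXA5 at 23.0 and 13.9. The percentile of ANXA2 rests on its long merged exons, at 37.6 per kilobase against 280 per kilobase of canonical transcript. Percentiles were not computed with another length.

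**Figure D4:**
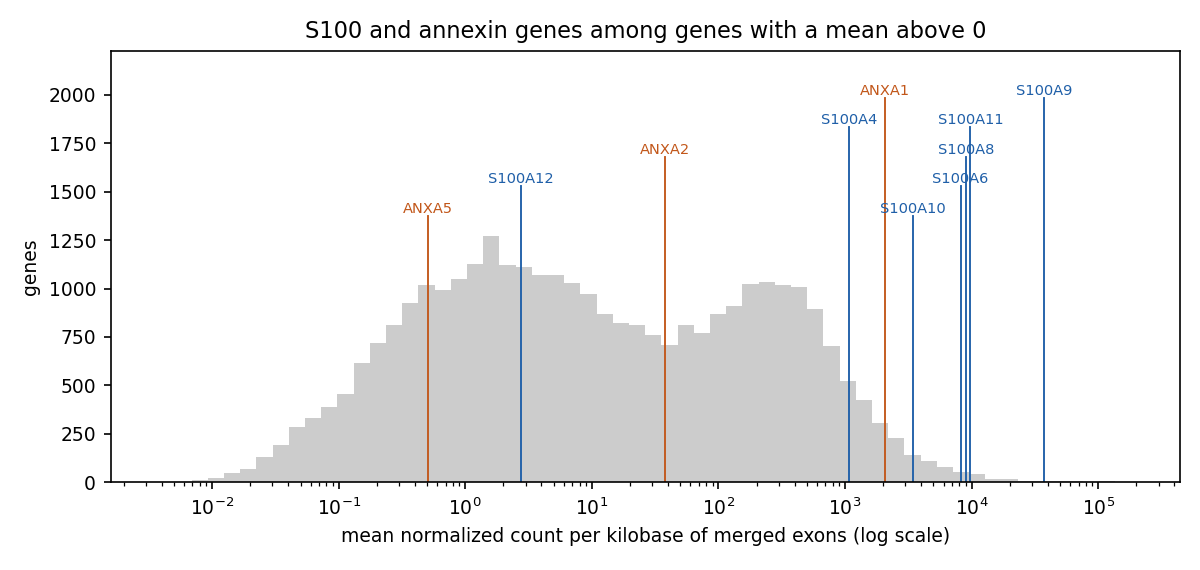
Distribution of the mean normalized count per kilobase of merged exons (log axis) over 31833 genes with a mean above 0 (grey, number of genes), with a line for each of the 10 genes. ANXA1 and the 6 S100 genes other than S100A12 lie in the upper tail, from 1075 for S100A4 to 37658 for S100A9, while ANXA5 lies at 0.510.

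The families were compared as wholes. The 7 S100 genes described above carried 99.69% of the reads of 21 S100 genes, and S100A9 alone carried 44.4%. Of the 14 other S100 genes 4 had a mean of at least 10, the highest being S100A13 at 50.6, followed by S100A1 at 34.5, S100A2 at 25.4 and S100P at 24.3 normalized counts, and 5 were listed at 0. The annotated spans of S100A13 and S100A1 overlap on opposite strands. Shared exons were not looked for and the strand setting is not given, so reads of S100A13 and S100A1 may be misassigned or left uncounted. Reads in the unlabelled libraries were 25, 37, 43, 29, 39 and 35 for S100A1. S100A2 had 33, 19, 26, 15, 31 and 29 reads. For S100P they were 36, 23, 25, 20, 19 and 23. These 3 genes were thus detected in every library at 15 reads or more, far below the described S100 genes other than S100A12.

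The 3 annexins described carried only 21.6% of the reads of 13 annexin genes. ANXA6 had the highest mean of the family at 14706 normalized counts, followed by ANXA11 at 10359, ANXA1 at 9247, ANXA7 at 6992 and ANXA4 at 2695. The places of ANXA1 and ANXA2 in the family depended on the length. Per kilobase of merged exons ANXA6 was first at 2670, ANXA7 followed at 2443 and ANXA1 was the third at 2077, whereas per kilobase of canonical transcript, a length chosen after seeing the data, ANXA1 was first at 6600, ahead of ANXA6 at 5090. ANXA3 exceeded ANXA2 per kilobase of merged exons, at 73.0 against 37.6, and lay below it per kilobase of canonical transcript, at 250 against 280. ANXA5 could not be separated from ANXA8 and ANXA8L1, which are near-identical copies of each other and had 20 and 10 reads over 6 libraries. Reads that ANXA8 and ANXA8L1 share may have gone uncounted, so their levels may be too low. ANXA9 had a mean of 88.8 normalized counts, and ANXA13 was listed at 0.

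**Figure D5:**
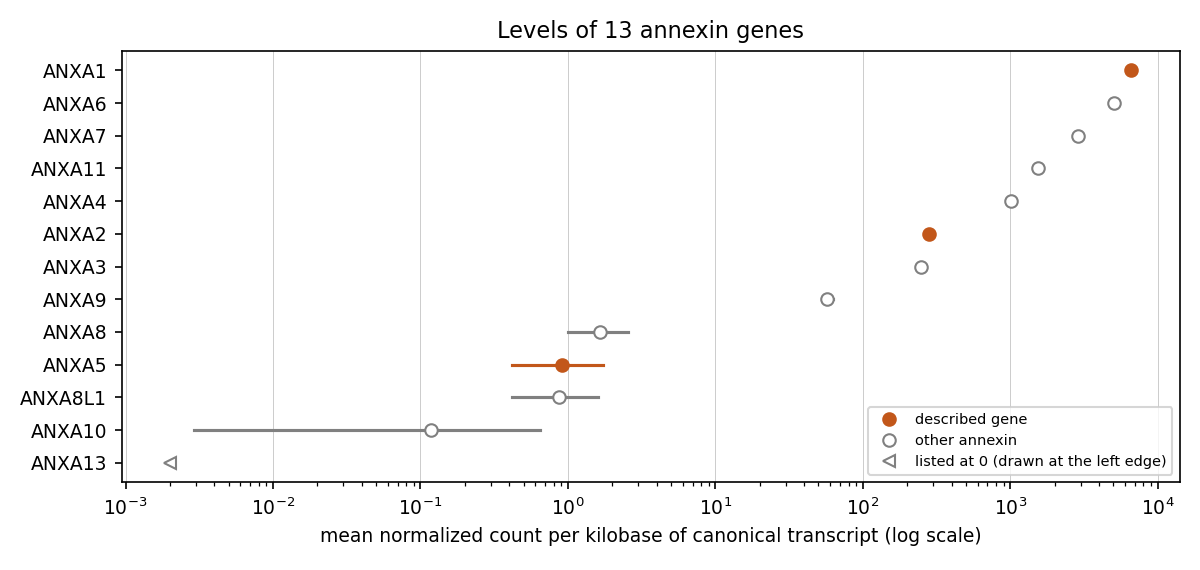
Mean normalized count per kilobase of canonical transcript (log axis) for 13 annexin genes with 95% Poisson intervals of the read sum, the described genes filled. At this length ANXA1 is at the top at 6600 and ANXA2 at 280 lies above ANXA3, places that per kilobase of merged exons fall to ANXA6 and ANXA3. ANXA5 is at 0.911, with an interval that overlaps those of ANXA8 and ANXA8L1, whose counts may omit reads they share.

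Receptors and binding partners were listed for the same proteins, and 13 of 16 had a mean of at least 10 normalized counts. Their means are not corrected for length and do not rank these genes. TLR4 had a higher mean than FPR2 but was lower per kilobase of merged exons, at 393 against 551. Of the receptors on which extracellular S100A8 and S100A9 act, TLR4 had a mean of 5213, CD33 of 7777, BSG (basigin) of 30995 and CD36 of 1138, while AGER, the receptor for advanced glycation end products, had a mean of 247. Formyl peptide receptors, which respond to ANXA1, differed. FPR2 had a mean of 1996, FPR1 of 84.4 and FPR3 was listed at 0. A limit of 3 reads over the 6 libraries puts its mean at up to 0.5, and the two-sided Poisson interval used for the other levels ends at 0.615. Among partners of the intracellular proteins, MYH9, the myosin heavy chain bound by S100A4, had a mean of 32282, CACYBP, which binds S100A6, of 6595, and AHNAK, which binds the complex of S100A10 and ANXA2, of 4315. HLTF stood at 2209 and PLA2G4A, the cytosolic phospholipase that annexins can inhibit, at 2161. Of the plasminogen system, PLGRKT, a plasminogen receptor, had a mean of 453, PLAT of 3.48, and PLG was listed at 0.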

How the data were processed

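RNA of FUJIOKA cells was sequenced by the authors in 3 shNEG and 3 shSPINK2 libraries as paired reads of 150 bases. The authors aligned reads to GRCh38 with STAR (2.7.11 in the submitters' processing notes), counted them per gene with featureCounts and normalized them with DESeq2 (1.40.0 in the submitters' processing notes). The annotation release and strand setting are not given in the sources used here. The paper's methods do not state how reads that match several places were counted. The deposited value used is a signal, the mean over 6 libraries of counts divided by size factors. The other columns hold the authors' comparison of the groups (fold change, standard error, statistic, p-values and a status) and were not used, so no test was made. No column holds values per library, and the edgeR test planned for such columns was not run.

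Gene models were taken from GENCODE release 44, which matched 57577 of 63236 gene IDs without version (91.1%). Reads of genes with a mean under 35 were recovered from the mean alone. Genes with 1 read in 1 library share 6 values, which give size factors from 0.985 to 1.03, and whole reads were searched whose weighted sum equals the mean within a relative 8e-15. This gave 1 solution for 200 of 200 genes drawn at random. In data simulated with the same size factors, the true reads were among the solutions for 100 of 100 genes. That simulation tests the search and not the size factors. Libraries found by the recovery have no label and entered no comparison. Reads are not molecules, so intervals and floors cover counting error only. Named genes were the 10 genes, SPINK2, other S100 genes and annexins with a mean of at least 10, their receptors and partners, and pseudogenes. Genes of the lists with a mean under 10, and genes beside the 10 genes, were named after their values were seen. Some marker genes are not reported here. The genes and lists were chosen with earlier results of these data known. Alternatives were other totals, lengths and filters. Scripts ran under Python (3.11.15) with scipy 1.17.1 for intervals, pandas 2.3.3 and numpy 2.4.6, and figures were drawn with matplotlib 3.10.9.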

Additional observations from a re-analysis of the deposited data

How the results depend on the processing

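The summed level of the 10 genes was 1512 of every 1000000 reads of all genes, 1540 of protein-coding genes and 1612 when mitochondrially encoded genes and the 10 highest genes were left out of the total. Of 10 genes, 8 kept their place per kilobase with coding length, 7 with the longest transcript and 5 with the canonical transcript, which was chosen after seeing the data. The ratio of S100A8 to S100A9, 0.239 with merged exons, was 0.522 with canonical transcripts, 0.456 with coding length and 0.372 without length correction. That of S100A10 to ANXA2, 91.8 with merged exons, was 18.6, 28.1 and 8.03 in the same order. That of S100A4 to S100A6, 0.131 with merged exons, was 0.108 with canonical transcripts and 0.114 with coding length. These 3 ratios stayed on their side of 1. That of S100A11 to S100A6 did not, at 1.2 with merged exons and 0.617, 0.686 and 0.800 with canonical transcripts, coding length and no correction. When the level's percentile was taken over genes whose mean reached 10, in place of all above 0, it fell from 63.6 to 28.3 for ANXA2, from 37.4 to 2.4 for S100A12 and from 17.6 to 0.0 for ANXA5. All percentiles used merged exons, and no other length was tried for them. Recovered reads were unchanged for 17 of 17 genes with size factors from genes with 2 reads in 1 library and with a tolerance 10 times as wide. No paired analysis was possible because no column used holds values per library, and for the same reason leaving out replicates, DESeq2 size factors and the count filter of the edgeR test were not run. Depth limits S100A12 and ANXA5, with 8 and 9 reads.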

Other observations

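The reads of SPINK2 recovered from its mean, in the 6 libraries in order of rising size factor, were 6, 53, 63, 56, 9 and 7. These values fall into 2 separate clusters of 3 libraries, from 6 to 9 and from 53 to 63. The libraries carry no label in the table, so they were not assigned to shNEG or shSPINK2, and no value of another gene was averaged or compared by these clusters.

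S100B, an S100 gene best known from glia and outside the cluster on chromosome 1, had 9, 6, 3, 2, 6 and 10 reads in the same libraries, with a mean normalized count of 5.96. S100A3 had 3, 0, 1, 3, 1 and 3 reads and ANXA8 had 3, 2, 4, 4, 2 and 5. S100A7A and ANXA10 had 1 read each in 1 library, and S100A14 had 2 reads in 1 library.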
